A study of Rattus norvegicus with 36 samples.

Results

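Lysosome and autophagy genes are described here as 34 named genes, chosen by symbol with earlier results of these data known. They are lysosomal enzymes and their cofactors, lysosomal membrane proteins, subunits of the lysosomal proton pump, the transcription factor Tfeb, and genes of the autophagy machinery. Of these, 33 had a row among the 20603 rows of the deposited table, of which 2584 carry a transcript identifier in place of a gene symbol. All 33 passed the filter on low values (a median of at least 10 normalised counts over the libraries), as did 15837 rows in all, called tested genes below, 968 of them without a symbol. The remaining gene, Map1lc3b, was not analysed here. The members with values were 15 soluble lysosomal proteins, 7 lysosomal membrane proteins, 2 proton pump subunits, 1 regulator and 8 autophagy genes.

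Hippocampal total RNA was sequenced from 36 female rats, 6 animals in each of 6 groups. The labels name the groups by a cycling status and an age: Reg6m (regular, 6 months), Reg9m, Irreg9m and Acyc9m (regular, irregular and acyclic, all at 9 months), Acyc16m (acyclic, 16 months) and RegOVX10m, whose ovaries were removed at 9 months and whose tissue was taken at 10 months. The labels used here name no strain. The 36 value columns carry the tissue and a running number only, so a library number below names a column and no animal, group or age. For that reason the groups were not compared, all libraries were treated as 1 ungrouped set, and every correlation mixes differences between the 6 groups with all other differences between libraries, which cannot be told apart.

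Lysosomes break down proteins, lipids and sugars in an acidic lumen. A vacuolar proton pump keeps that lumen acidic, soluble hydrolases such as the cathepsins do the cutting, and membrane proteins shield the limiting membrane and move products across it. In autophagy, cytoplasmic cargo is enclosed in a double membrane with the help of Ulk1, Becn1, the Atg proteins and the LC3 and GABARAP family, and the autophagosome then fuses with a lysosome. TFEB is a transcription factor known to act on many lysosomal and autophagy genes through promoter elements built on the letters CACGTG. In brain, microglia are rich in lysosomal proteases, and neurons depend on both systems to clear material from long processes.

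Promoter windows were examined because these elements are the textbook link between the members. RefSeq promoter windows of the rat build GRCr8, 250 bases before to 50 after the start site, were found for 27 of the 34 members. On both strands, the palindrome CACGTG was present in 6 of the 27 (Ctsd, Lamp1, Glb1, Cln3, Mcoln1 and Atg5), against 6.42% of all 33469 windows of that length. The longer palindrome of the lysosomal CLEAR element, which extends CACGTG by a GT before it and an AC after it, was present in 0 of the 27 and in 0.233% of all windows. The intermediate TCACGTGA, searched after the windows had been seen, was present in 4 (Ctsd, Lamp1, Cln3 and Mcoln1) and in 0.777% of all windows. Windows of 4 members that hold CACGTG are printed 5′ to 3′ on the gene's strand, with each CACGTG in capitals: Ctsd (cathepsin D, chr1:206968772-206969071, minus strand), Lamp1 (a major membrane glycoprotein, chr16:83075014-83075313, minus strand), Glb1 (beta-galactosidase, chr8:122963468-122963767, plus strand) and Cln3 (a membrane protein mutated in juvenile Batten disease, chr1:190597880-190598179, minus strand).
Ctsd: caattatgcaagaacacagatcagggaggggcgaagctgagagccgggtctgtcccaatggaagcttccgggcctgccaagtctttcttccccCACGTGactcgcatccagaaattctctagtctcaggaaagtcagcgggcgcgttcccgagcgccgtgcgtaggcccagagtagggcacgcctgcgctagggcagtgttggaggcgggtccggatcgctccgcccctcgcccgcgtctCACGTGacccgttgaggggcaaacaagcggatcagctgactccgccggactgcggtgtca
Lamp1: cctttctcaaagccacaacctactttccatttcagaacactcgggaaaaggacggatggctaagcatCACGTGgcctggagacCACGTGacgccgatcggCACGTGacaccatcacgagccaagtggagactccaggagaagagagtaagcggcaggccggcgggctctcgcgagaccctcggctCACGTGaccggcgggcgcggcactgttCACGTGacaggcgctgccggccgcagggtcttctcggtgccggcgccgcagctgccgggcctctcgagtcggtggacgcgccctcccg
Glb1: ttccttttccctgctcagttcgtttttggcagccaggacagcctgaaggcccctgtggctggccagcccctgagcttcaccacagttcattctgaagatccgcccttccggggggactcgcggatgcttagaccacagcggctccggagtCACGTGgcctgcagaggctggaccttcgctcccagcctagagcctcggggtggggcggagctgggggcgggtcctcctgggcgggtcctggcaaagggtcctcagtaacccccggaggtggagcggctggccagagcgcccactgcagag
Cln3: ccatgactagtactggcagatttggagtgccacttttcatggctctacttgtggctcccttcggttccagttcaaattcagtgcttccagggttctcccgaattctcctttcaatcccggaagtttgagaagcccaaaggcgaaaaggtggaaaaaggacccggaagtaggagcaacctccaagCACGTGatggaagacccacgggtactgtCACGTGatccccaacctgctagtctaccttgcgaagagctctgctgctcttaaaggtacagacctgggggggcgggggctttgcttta
The Lamp1 window holds 5 copies, the first beginning 183 bases and the last 38 bases upstream of the start site. The Ctsd window holds 2 copies, beginning 157 and 10 bases upstream, and the Cln3 window holds 2, beginning 66 and 38 bases upstream. The single copy in Glb1 begins 100 bases upstream. A match describes letters only and is not evidence of binding.

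Libraries 16 and 17 stood apart from the others and are given with the results they touch. Over all tested genes, they had the 2 highest median absolute deviations from the gene medians, 0.121 (library 16) and 0.130 (library 17) on the log2 scale, followed by library 10 at 0.098. Their oligodendrocyte markers differed in opposite directions. The summed level of 6 such markers was lowest in library 16, at -29.6% from the median, and highest in library 17, at 93.6% above it. Library 17 also had the highest summed astrocyte, endothelial and red blood cell markers. Its summed leptomeningeal markers were the lowest, but the single markers were split. In library 17, Dcn (228, median 604) and Lum (198, median 339) were below their medians. Slc6a13 (150, median 102), Col1a1 (171, median 127) and Col1a2 (167, median 115) were above theirs. Whether tissue composition had a part in the members' values was not tested, and in bulk tissue fewer cells of a type and less RNA per cell cannot be told apart. All 5 markers of hippocampal fields, Prox1 (dentate granule cells), Wfs1, Neurod6, Fibcd1 and Calb1, were above 0 in every library, as were all 53 cell type markers with a row of 55 listed. The field markers were not at even levels. Library 16 had the highest Prox1 (5722, median 3949) and the lowest Neurod6 (5883, median 7449). There, Calb1 was above its median (4187 against 3330), and Wfs1 (9038 against 12378) and Fibcd1 (4608 against 6200) were below. Library 17 had the lowest Fibcd1 (3717) and Calb1 (2347). Totals of the deposited values per library ran from 34455978 to 35985904, with a median of 35272240. Since these are normalised values, the read depth behind them is unknown. Of 630 pairs of columns, 0 were identical. Library 30 had 12.7% of rows at 0, against 9.16% to 10.3% in the others.

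The median member varied less between libraries than the median tested gene. The members' median distance between quartiles was 0.098 on the log2 scale, 0.103 for the 22 lysosomal enzymes and membrane proteins and 0.079 for the 8 autophagy genes, against 0.146 for all tested genes and 0.127 for the 12839 tested genes with a median of at least 100. Levels of different genes are not ranked here, because the values are not per length.

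Among the cathepsins, which are the main lysosomal proteases, Ctsb ran from 14656 to 17128 normalised counts with a median of 16226. Ctsd ran from 7352 to 9389 with a median of 8408. Both were lowest in library 16 and highest in library 10. Ctss, a cathepsin typical of microglia and macrophages, had the widest distance between quartiles of any member, 0.25 on the log2 scale. It ran from 4633 in library 30, the library with most rows at 0, to 7766 in library 35 with a median of 5972, and its lowest value without library 30 was 5111. Ctsz ran from 404 to 613 with a median of 503, Ctsl from 2333 to 2895 with a median of 2670, and Ctsa, a carboxypeptidase that also protects other enzymes, from 3335 to 3933 with a median of 3645. Ctsa, Ctsb and Ctsd were among the 5 members with the narrowest quartile distance, and Ctss and Ctsz among the 5 with the widest.

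The glycosidases and other soluble members covered a similar span. Glb1, which removes terminal galactose, ran from 440 normalised counts in library 6 to 741 in library 19 with a median of 579, a ratio of 1.68. That ratio was matched only by Ctss among the members, also at 1.68. Hexa, a hexosaminidase subunit, ran from 1410 to 1709, Gusb, a glucuronidase, from 135 to 200.3, Naglu, which acts on heparan sulphate, from 242 to 349.96, and Neu1, a sialidase, from 698 to 928. Psap, the precursor of the saposins that present lipids to hydrolases, ran from 45485 to 55120 with a median of 50812. Grn, the precursor of granulins, ran from 1459 to 1970.3 with a median of 1662, and was highest in library 10, like Psap. The peptidase Tpp1 ran from 2398 to 3074 and the thioesterase Ppt1 from 2692 to 3075.

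Among the membrane proteins, Lamp1 ran from 10326 in library 16 to 12919 in library 17 with a median of 11589. Lamp2, its relative with a part in chaperone-mediated autophagy, ran from 2132 to 2847 with a median of 2475, and Scarb2, the sorting receptor for glucocerebrosidase, from 3764 to 4845 with a median of 4356. Lamp1, Lamp2 and Scarb2 were all highest in library 17. Mcoln1, a lysosomal calcium channel, ran from 1708 to 2123, Cln3 from 492 to 607 and Laptm4a from 7572 to 9128. Laptm5, expressed in blood-lineage cells, ran from 768 to 1045 with a median of 930.5 and was the third widest member by quartile distance, at 0.21 on the log2 scale. The catalytic pump subunit Atp6v1a ran from 21812 in library 17 to 29553 in library 2 with a median of 26506, and Atp6v1h, a regulatory subunit of the same pump, from 4546 to 5378. Tfeb ran from 259 in library 16 to 418 in library 17 with a median of 338, so its 2 extremes were the libraries that stood apart.

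Among the autophagy genes, the cargo receptor Sqstm1 (p62) ran from 14128 in library 16 to 17791 in library 5 with a median of 16329. Map1lc3a, an LC3 protein of the autophagosome membrane, ran from 2766 in library 16 to 4101 in library 10 with a median of 3446, and was the widest of the 8. Gabarapl1 was also lowest in library 16 (13944 to 17065) and had the narrowest quartile distance of all members, 0.056 on the log2 scale. Gabarap, from the same family, ran from 3402 to 4153. Becn1, part of the lipid kinase complex that starts the autophagosome, ran from 4564 to 5277 and Ulk1, the initiating kinase, from 2801 to 3176, the narrowest ratio of any member at 1.13. The conjugation factors Atg5 and Atg7 ran from 608 to 798 and from 705 to 852. In all, library 16 was lowest for 9 members, of which 5 were lysosomal and 3 autophagy genes, while 8.85% of all tested genes were lowest there. Library 17 was highest for 5 members, of which 4 were lysosomal, while 12.04% of all tested genes were highest there.

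**Figure D1:**
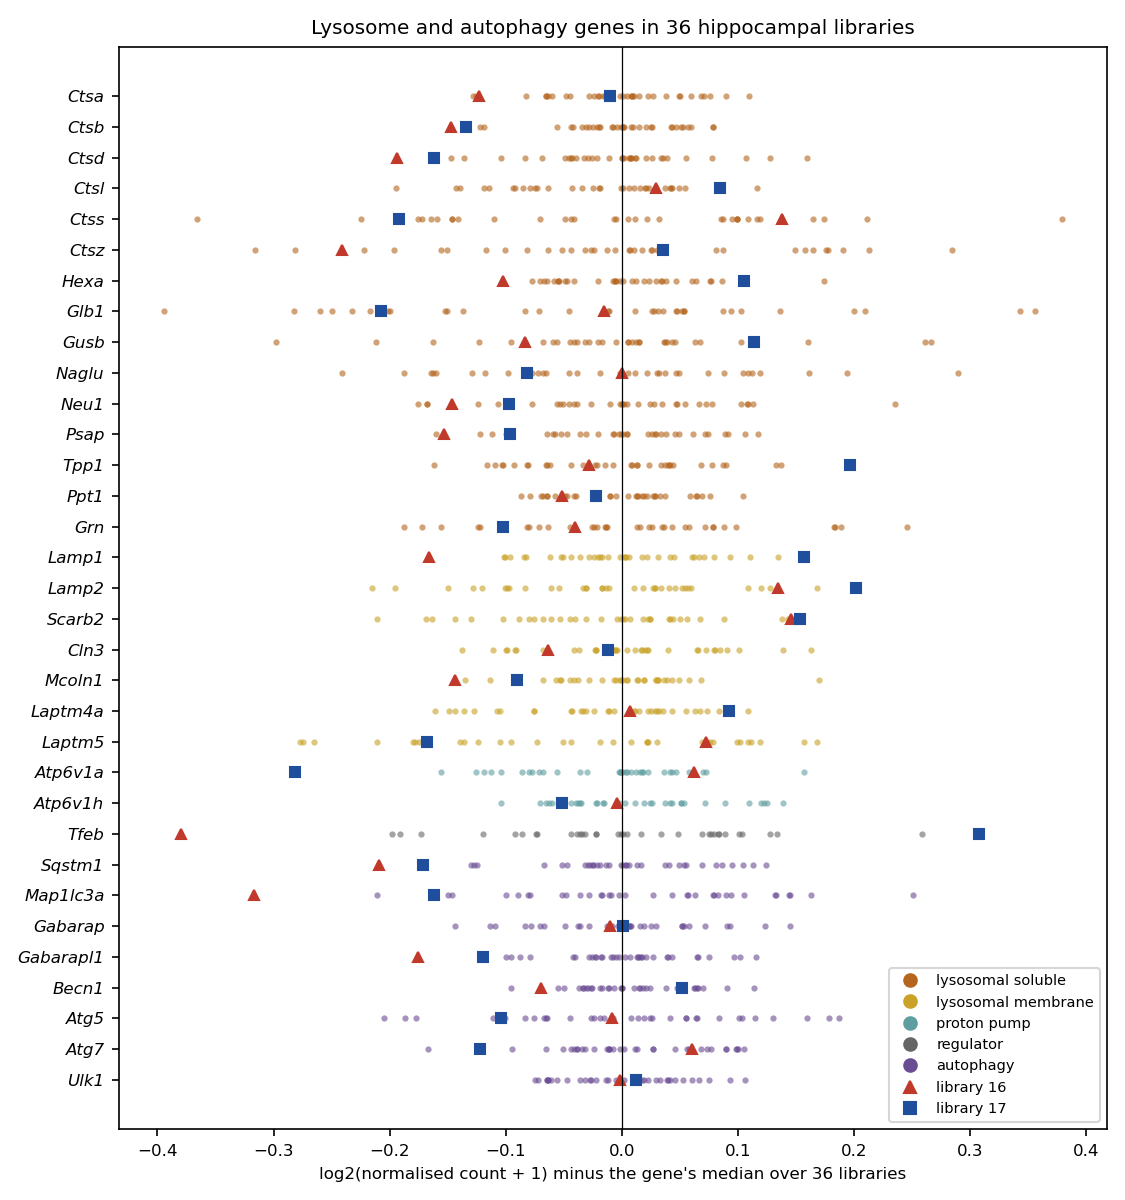
Each point is 1 of 36 libraries, plotted on the x axis as the log2(normalised count + 1) of a member minus its median, with 1 row per member and colours for role. Library 16 (red triangles) and library 17 (blue squares) hold the lowest and highest values of Tfeb and Lamp1, and Ctss and Glb1 spread most from lowest to highest.

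Co-variation was measured as Pearson's r of log2(normalised count + 1) over 36 libraries for every pair of tested genes. The correlation test's p was adjusted by Benjamini-Hochberg over all 125397366 pairs, and a pair is said to pass at an adjusted p under 0.05, which here needed an r of at least 0.49 in size. Over all pairs of tested genes the median r was -0.0035, and 2.74% passed with a positive and 2.06% with a negative r. Pairs share the same libraries and are not independent.

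The lysosomal enzymes and membrane proteins varied together more often than they opposed each other. Of their 231 pairs, 25 passed with a positive r (10.8%) and 0 with a negative r, and the median r was 0.17. Of the 28 pairs of autophagy genes, 5 passed with a positive r (17.9%) and 0 with a negative r, and the median r was 0.27. That count was 3 without library 4, 10, 12 or 35 alone, and 3 with the columns rescaled to 1 total. Between the lysosomal and the autophagy genes, 16 of 176 pairs passed with a positive r (9.09%) and 8 with a negative r (4.55%), and the median r was 0.11. Over all 528 pairs of members the counts were 48 and 12. No test compares these shares with the background, so they are descriptions.

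The negative pairs between lysosomal and autophagy genes were all with the membrane proteins Scarb2 (4), Lamp2 (3) and Laptm4a (1). Soluble lysosomal proteins with autophagy genes gave 14 positive and 0 negative of 120 pairs, whereas membrane proteins with autophagy genes gave 2 positive and 8 negative of 56 pairs. Among soluble proteins, 17 of 105 pairs were positive. Between soluble and membrane proteins, 7 of 105 were positive, and among the 7 membrane proteins 1 of 21. The 2 positive pairs of membrane proteins with autophagy genes were Lamp1 with Map1lc3a and Mcoln1 with Sqstm1, and Cln3 and Laptm5 had none. Over all pairs of tested genes, 2.74% passed with a positive and 2.06% with a negative r. Of all tested genes, 5.96% passed negatively with Scarb2, 7.22% with Lamp2 and 3.81% with Laptm4a. This split by role was read after the pair values were seen, and the difference between the roles was not tested.

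Leaving out libraries 16 and 17, a choice made after seeing the data, lowered the background to 1.64% positive and 1.05% negative and raised the size of r needed to 0.53. The counts were then 22 positive within the lysosomal genes and 4 within the autophagy genes, with 0 negative in either. Between them they were 14 positive (7.95%) and 4 negative (2.27%). The negative share between them was 4.55% with all libraries, where the negative share of all pairs of tested genes was 2.06%. Of the 48 positive pairs of members, 35 also passed without the 2 libraries and 13 did not, while 6 others passed. Of the 12 negative pairs, 5 also passed. The 4 remaining negative pairs of lysosomal with autophagy genes were with Scarb2 (2), Lamp2 (1) and Laptm4a (1).

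**Figure D2:**
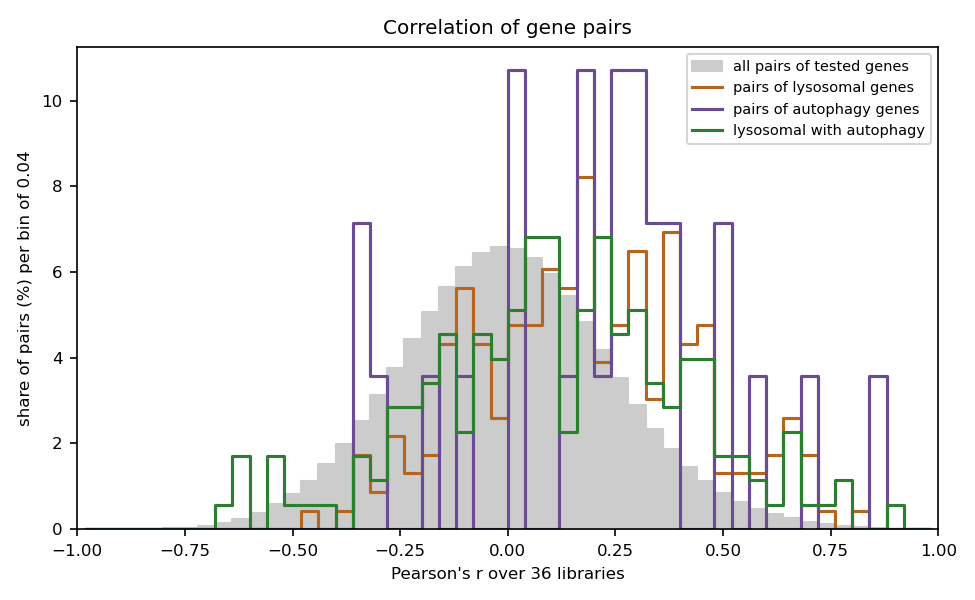
Distribution of Pearson's r (x axis, over 36 libraries) as the share of pairs in each bin (y axis, percent) for lysosomal pairs, autophagy pairs, lysosomal with autophagy pairs and all pairs of tested genes. The medians of the members' pairs lie to the right of that of all pairs, at 0.17, 0.27 and 0.11 against -0.0035.

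The highest r joined a cathepsin to an autophagy receptor. Ctsb and Sqstm1 had r = 0.89 and Spearman's rho = 0.83, each with a permutation p of 1e-05, the smallest that 100000 permutations can give, and an adjusted p of 6.95e-09 in the correlation test. Both genes were low in libraries 16 and 17, where Ctsb was at 14656 and 14780 and Sqstm1 at 14128 and 14499. Without these, which are also the 2 libraries farthest from the median of Ctsb, r was 0.84 with an adjusted p of 4.48e-06. Sqstm1 and Map1lc3a had r = 0.85 and rho = 0.79 (adjusted p = 3.58e-07), and 0.79 without the 2 libraries. Ctsb and Ctsd, the 2 cathepsins often measured as markers of lysosomal proteolysis, had r = 0.84 and rho = 0.70 (adjusted p = 6.68e-07), and 0.77 without them. Ctsd with Map1lc3a (0.78) and Ctsb with Map1lc3a (0.77) completed the 5 highest pairs, and stood at 0.71 and 0.69 without the 2 libraries. The permutation p was at most 2e-05 for r and rho of each of these 5 pairs. They were picked as the highest r, so small permutation p-values follow from that choice.

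Around these 4 genes, Psap and Ctsa took part in further pairs. Psap, whose saposins are cut out by cathepsin D, had r = 0.68 with Ctsd (rho = 0.56, adjusted p = 0.000856) and 0.69 with Grn, to whose product it binds (rho = 0.70, adjusted p = 0.000641). Without libraries 16 and 17 these were 0.60 and 0.70. Without libraries 10 and 9, the farthest from the median of Grn, the second was 0.63. Ctsd and Sqstm1 had r = 0.75 (rho = 0.66, adjusted p = 6.31e-05), and 0.64 without the 2 libraries. Ctsa passed with 9 other members, among them Ctsb (0.68), Ctsd (0.67), Hexa (0.61), Grn (0.61) and the calcium channel Mcoln1 (0.69). Mcoln1 was the membrane protein with most positive partners, 6, and with Sqstm1 it had r = 0.67.

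A written list held 26 pairs, among them lysosomal with autophagy pairs such as Cln3 with Becn1. It was made with earlier results of these data known. Over all pairs of tested genes, 2.74% passed with a positive and 2.06% with a negative r. Of these 26, 23 could be computed and 6 passed, all with a positive r. Besides Ctsb with Ctsd, Ctsd with Psap, Grn with Psap and Ctsd with Sqstm1, these were Atp6v1a with Atp6v1h and Scarb2 with Lamp2. Of all tested genes, 10.8% passed positively with Ctsb, 8.38% with Ctsd, 12.4% with Sqstm1, 6.42% with Psap and 0.991% with Grn. The share was 7.62% with Atp6v1a, 2.41% with Atp6v1h, 5.73% with Scarb2 and 3.98% with Lamp2. The 2 pump subunits had r = 0.62 and rho = 0.66 (adjusted p = 0.00468), 0.66 without libraries 16 and 17, and 0.58 without libraries 17 and 2, the farthest from the median of Atp6v1a. Scarb2 and Lamp2 had r = 0.54 and rho = 0.59 (adjusted p = 0.0237), 0.56 without libraries 12 and 1, the farthest for Scarb2, and 0.43 (adjusted p = 0.157) without libraries 16 and 17, so that pair did not pass there.

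Among the 17 listed pairs that did not pass were those of the enzyme complex of Ctsa, Neu1 and Glb1, in which the carboxypeptidase protects the sialidase and the galactosidase. Ctsa with Neu1 had r = 0.39 (adjusted p = 0.162), Ctsa with Glb1 0.02 (adjusted p = 0.969) and Glb1 with Neu1 -0.10 (adjusted p = 0.833). Of all tested genes, 0.0758% passed positively with Glb1, 1.33% with Neu1 and 5.3% with Ctsa, and 0.0568%, 1.41% and 2.67% negatively. Lamp1 with Lamp2 had r = 0.15 (adjusted p = 0.724), Gabarap with Gabarapl1 0.33 (adjusted p = 0.283), Atg5 with Atg7 0.18 (adjusted p = 0.633) and Ulk1 with Becn1 -0.32 (adjusted p = 0.308). The 2 proteins mutated in infantile and late infantile Batten disease, Ppt1 and Tpp1, had r = 0.19 (adjusted p = 0.618). The p-values missing the threshold do not show that these genes vary independently.

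Tfeb did not pass with any of its 3 listed partners. It had r = 0.14 with Mcoln1 (adjusted p = 0.732), 0.11 with Ctsd (adjusted p = 0.805) and 0.11 with Sqstm1 (adjusted p = 0.798). Without library 16 these were -0.06, -0.13 and -0.15, without library 17 they were 0.26, 0.29 and 0.31, and without both they were 0.06, 0.06 and 0.05. Among all members Tfeb passed with Lamp1 (r = 0.52, adjusted p = 0.0338) and, negatively, with Atp6v1a (-0.50, adjusted p = 0.0413), and neither passed without libraries 16 and 17 (0.26 and -0.31). Lamp1 with Ctsd, whose promoter windows are printed above, had r = 0.42 (adjusted p = 0.123). Without library 17 that pair had r = 0.62, and without both 16 and 17 0.54 (adjusted p = 0.0433), so that it passed.

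The opposed pairs centred on Scarb2, Lamp2 and Atp6v1a. Lamp1 and Atp6v1a had the lowest r of all member pairs, -0.73 (rho = -0.75, adjusted p = 0.000164). Library 17 had the highest Lamp1 and the lowest Atp6v1a. Without libraries 16 and 17, r was -0.67 (adjusted p = 0.00318). Scarb2 and Becn1 had r = -0.64 (rho = -0.60, adjusted p = 0.00245) and -0.72 without the 2 libraries. Lamp2 and Sqstm1 had r = -0.63 (rho = -0.57, adjusted p = 0.00328) and -0.53 without them, at an adjusted p of 0.048. Laptm4a with Ulk1 (r = -0.63, rho = -0.55) and Scarb2 with Gabarap (r = -0.60, rho = -0.61) stood at -0.66 and -0.66 without them. The permutation p of each of these 5 pairs was at most 0.00013 for r and 0.00054 for rho. They were picked as the lowest r, so small permutation p-values follow from that choice. Leaving out the 2 libraries farthest from the median of the first gene, Scarb2 with Becn1 had r = -0.57, Scarb2 with Gabarap -0.57, Lamp2 with Sqstm1 -0.58 and Laptm4a with Ulk1 -0.52.

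The other negative pairs did not pass without libraries 16 and 17. They were Lamp2 with Map1lc3a and with Gabarapl1, Scarb2 with Sqstm1 and with Map1lc3a, and Atp6v1a with Hexa, Tpp1 and Tfeb, with r between -0.56 and -0.49. Over all 60 pairs that passed, the permutation p for r was at most 0.00238 and for rho at most 0.0323. These pairs were chosen by r over the same libraries, so small permutation p-values follow from that choice and add no further support.

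**Figure D3:**
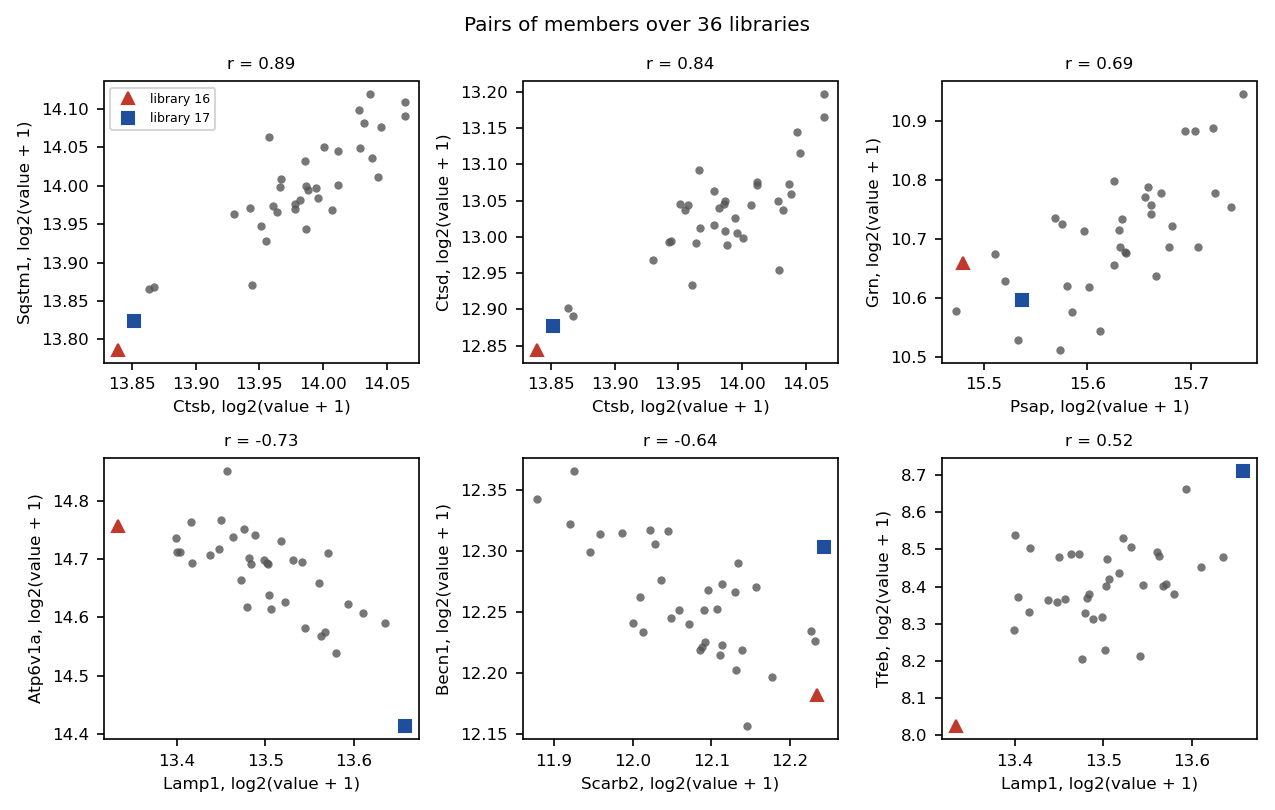
Log2(normalised count + 1) of 6 pairs of members, 1 point per library (n = 36), with library 16 as a red triangle and library 17 as a blue square. Ctsb with Sqstm1 (r = 0.89), Ctsb with Ctsd (0.84) and Psap with Grn (0.69) rise together, Lamp1 with Atp6v1a (-0.73) and Scarb2 with Becn1 (-0.64) oppose each other, and Lamp1 with Tfeb (0.52) has libraries 16 and 17 at its ends.

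Positive partners among members were set beside each gene's partners among all tested genes, because some members correlated with a large share of the table. Grn had positive pairs with 7 of the 32 other members (21.9%) against 0.991% of all genes, and Ctsz with 4 (12.5%) against 1.24%. Ctsa had 9 (28.1%) against 5.3%, and Psap 8 against 6.42%. For Ctsb, Ctsd and Map1lc3a the share of members was also 28.1%, but 10.8%, 8.38% and 12.1% of all genes passed with them. Sqstm1 had 7 against 12.4%, and Mcoln1 6 (18.8%) against 6.98%. On the negative side, Scarb2 opposed 4 members (12.5%) against 5.96% of all genes, Atp6v1a 4 against 5.35% and Lamp2 3 (9.38%) against 7.22%. Grn thus had few partners in the table and many among members, while Sqstm1 and Map1lc3a had many in both. The 6 members with no pair that passed were Glb1, Naglu, Ppt1, Cln3, Laptm5 and Atg5. They passed with few genes of the whole table. In the same order, 0.0758%, 1.05%, 0.341%, 0.631%, 0.511% and 0.928% of all tested genes passed positively with them. The negative shares were 0.0568%, 0.613%, 0.221%, 0.246%, 0.17% and 1.14%. Having no partner among 32 members is near these shares. The genes shown with their own background were chosen after their counts were seen.

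**Figure D4:**
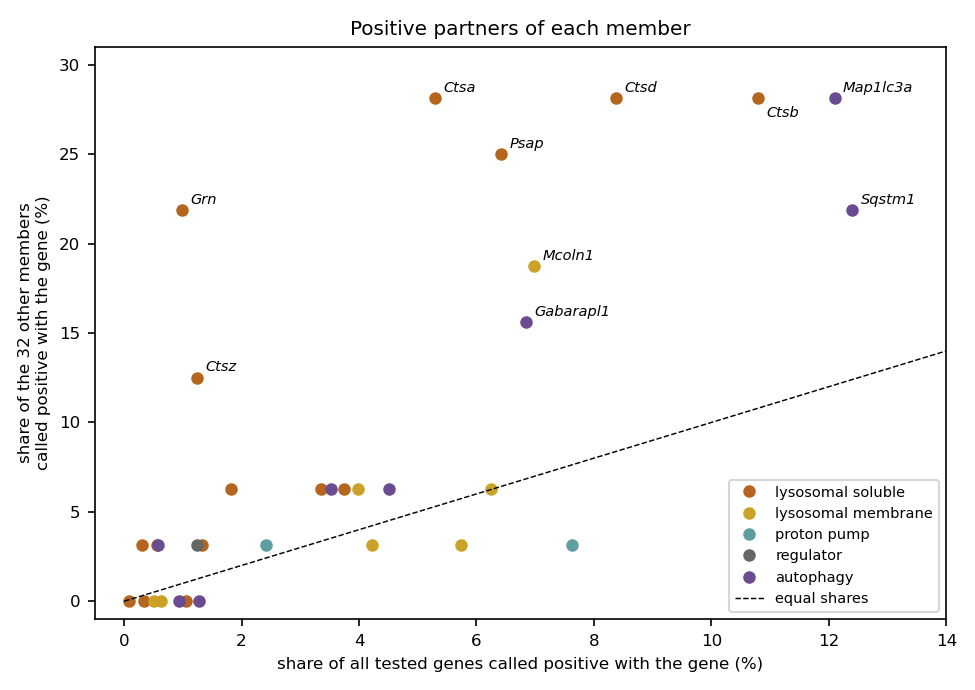
For each of the 33 members, the share of all tested genes that passed with it at a positive r (x axis, percent) and the share of the 32 other members that did (y axis, percent), with the dashed line marking equal shares. Grn lies far above the line at 0.991% and 21.9%, and Ctsb, Sqstm1 and Map1lc3a lie furthest to the right, between 10.8% and 12.4%.

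Other genes of the same pathways were taken from a separate list. Over all pairs of tested genes, 2.74% were positive and 2.06% negative. For 25 further lysosomal genes, 46 of 550 pairs with the lysosomal members were positive (8.36%) and 13 negative (2.36%). Of their 200 pairs with the autophagy members, 21 were positive (10.5%) and 5 negative (2.5%). For 18 further autophagy genes, 18 of 396 pairs with lysosomal members were positive (4.55%) and 16 negative (4.04%), with a median r of -0.008. Of their 144 pairs with autophagy members, 9 were positive (6.25%) and 6 negative (4.17%), with a median r of 0.017. For 6 regulators, including Mtor, 7 of 132 (5.30%) and 2 of 48 (4.17%) were positive, and 6 (4.55%) and 3 (6.25%) negative. Without libraries 16 and 17 the positive counts were 34, 14, 12, 8, 2 and 1 in the same order, and the negative counts 7, 4, 6, 2, 6 and 3. Of all pairs, 1.64% were then positive and 1.05% negative.

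Some of these genes, singled out after their values were seen, had high r with members. The pump subunit Atp6v0d1 had r = 0.87 with Sqstm1, 0.86 with Ctsb and 0.85 with Map1lc3a. The autophagy lipid scramblase Atg9a had r = 0.84 with Sqstm1 and 0.83 with Ctsb, and -0.71 with Lamp2. The pump subunit Atp6v1b2 had r = 0.72 with Atp6v1a, and Gabarapl2 had 0.69 with Gabarap. Mtor, the kinase that restrains autophagy, had r = -0.80 with Becn1 (adjusted p = 7.2e-06), and -0.78 without libraries 16 and 17. Npc2, which carries cholesterol in the lumen, had r = 0.66 with Laptm5 and 0.65 with Ctsz.

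By the median r to each role, the closest genes outside the members were also named. For the soluble lysosomal proteins these were Mid1ip1 (median r 0.53), Ftl1, a ferritin light chain (0.51), and Cndp2 (0.49). For the membrane proteins they were B2m (0.41), Ubxn6 (0.40) and Selenop (0.39), of which Selenop was at 0.20 without libraries 16 and 17. The pump subunits were closest to Usp14 (0.80), Cct8 (0.78) and the synaptotagmin Syt4 (0.77). The autophagy genes were closest to Eif1b (0.55), the late endosomal GTPase Rab7a (0.55) and Nme2 (0.54). Tfeb was closest to Elovl1 (0.69), Nkd1 (0.67) and St3gal4 (0.65), which stood at 0.51, 0.41 and 0.51 without the 2 libraries.

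Cell type markers moved with some members, and their part in the results above was not tested. The summed level of 11 microglial markers ran from 8288 to 11486. With lysosomal members, 30 of 242 pairs were positive (12.4%, against 2.74% of all pairs) and 0 negative. With autophagy members, 3 of 88 were positive (3.41%) and 0 negative. Without libraries 16 and 17 the positive counts were 20 and 1, where 1.64% of all pairs were positive. Laptm5, which had no partner among members, passed with 8 of the 11 microglial markers, against 0.511% of all tested genes. Ctss passed with 4 (0.303% of all genes), Ctsz with 4 (1.24%), Grn with 3 (0.991%) and Ctsd with 3 (8.38%). C1qa, a complement subunit made by microglia, had r = 0.71 with Ctsz and 0.64 with Ctss.

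The 6 oligodendrocyte markers, whose sum ran from 123664 in library 16 to 340053 in library 17, passed with Lamp1 in 6 of 6 cases and with Tfeb in 6 of 6, and with Atp6v1a negatively in 5. Over all tested genes, 6.25% passed positively with Lamp1, 1.24% positively with Tfeb and 5.35% negatively with Atp6v1a. The marker counts became 3, 0 and 1 without libraries 16 and 17. The myelin gene Mbp had r = 0.77 with Lamp1, and 0.69 without them, and 0.64 with Tfeb, and 0.34 without them. In all, oligodendrocyte markers gave 10 positive of 132 pairs with lysosomal members (7.58%, against 2.74% of all pairs), 4 without the 2 libraries, and 0 of 48 with autophagy members. Lamp1 and Atp6v1a also passed with other markers. Of 7 astrocyte markers, 1 passed positively with Lamp1 and 3 negatively with Atp6v1a, and of 7 neuronal markers 1 negatively and 3 positively. Of all tested genes, 8.32% passed negatively with Lamp1 and 7.62% positively with Atp6v1a. S100b had r = 0.76 and -0.77 with them, and Syt1 -0.67 and 0.83. Without libraries 16 and 17 these were 0.72, -0.67, -0.66 and 0.78. Lamp1 also passed positively with 2 microglial, 1 endothelial and 2 choroid plexus markers, and negatively with 2 hippocampal field and 1 leptomeningeal marker. Atp6v1a passed negatively with 2 microglial and 1 endothelial marker, and positively with 1 hippocampal field and 1 leptomeningeal marker. Without the 2 libraries these counts were 1, 1, 2, 0 and 1 for Lamp1, and 3, 1, 1 and 1 for Atp6v1a.

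Neuronal markers, summed from 314597 to 366357, gave 9 positive (5.84%) and 10 negative (6.49%) of 154 pairs with lysosomal members. With autophagy members they gave 5 (8.93%) and 4 (7.14%) of 56. Over all pairs of tested genes, 2.74% were positive and 2.06% negative. The marker counts were 3 and 1, and 4 and 1, without libraries 16 and 17, where 1.64% and 1.05% of all pairs passed. Different neuronal markers went in opposite directions with the same members. Slc17a7, the vesicular glutamate transporter of excitatory neurons, had r = 0.90 with Sqstm1 (adjusted p = 2.6e-09), 0.86 with Map1lc3a, 0.81 with Ctsb and 0.79 with Ctsd. It had r = -0.63 with Lamp2 and -0.58 with Scarb2. Map2, a dendritic cytoskeletal protein, had the opposite sign, with r = -0.61 with Sqstm1, -0.60 with Map1lc3a, -0.55 with Ctsb, -0.56 with Ctsd and 0.62 with Scarb2. Without libraries 16 and 17, Slc17a7 stood at 0.85 with Sqstm1, 0.84 with Map1lc3a and 0.70 with Ctsb, while the pairs with Lamp2 and Scarb2 (-0.50 and -0.44) did not pass. Of these 5 pairs of Map2, Scarb2 (0.54) passed without the 2 libraries, and the pairs with Sqstm1 (-0.49), Map1lc3a (-0.48), Ctsb (-0.41) and Ctsd (-0.43) did not. These pairs were singled out after their values were seen.

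The remaining marker lists are given as positive and then negative pairs, first with lysosomal and then with autophagy members. Over all pairs of tested genes, 2.74% were positive and 2.06% negative, and 1.64% and 1.05% without libraries 16 and 17. Astrocyte markers, summed from 114871 to 159391, gave 7 positive (4.55%) and 5 negative (3.25%) of 154 pairs with lysosomal members. With autophagy members they gave 0 and 6 (10.7%) of 56. Hippocampal field markers, summed from 27434 to 40702, gave 1 (0.909%) and 7 (6.36%) of 110, and 4 (10%) and 1 (2.5%) of 40. Endothelial markers, summed from 7340 to 11248, gave 8 (9.09%) and 2 (2.27%) of 88, and 0 and 3 (9.38%) of 32. Leptomeningeal markers, summed from 915 to 1759, gave 0 and 4 (3.64%) of 110, and 0 and 2 (5%) of 40. Red blood cell markers, summed from 565 to 4788, gave 1 (2.27%) and 0 of 44, and 0 of 16 in either direction. Choroid plexus markers, whose sum ran from 53.5 to 1965 and was highest in library 8, gave 4 (4.55%) and 0 of 88. With autophagy members they gave 0 of 32 in either direction. The counts with lysosomal members, without libraries 16 and 17, were 7 and 0 for astrocyte, 2 and 1 for hippocampal field, 3 and 0 for endothelial, 0 and 2 for leptomeningeal, 0 and 0 for red blood cell and 3 and 0 for choroid plexus markers. With autophagy members they were then 0 and 3 for astrocyte, 2 and 0 for hippocampal field, 0 and 1 for endothelial and 1 and 0 for leptomeningeal markers, and 0 in either direction for the other two lists.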

How the data were processed

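Hippocampal RNA of 36 rats was measured by RNA sequencing. The deposited table gives normalised counts per gene symbol or transcript identifier, a signal scaled by the authors and not whole reads. Per the submitters' processing notes, kallisto 0.43 and DESeq2 were used, without roles. No reference transcriptome or build is named there (not given in the sources used here). Rows without a gene symbol (2584) carry a transcript identifier and were kept in the totals and tests. Column names show the tissue and a number, so columns were taken as the hippocampus group shared by all samples, which assumes that they are the 36 samples described. 0 columns were left unused.

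Values were taken as log2(value + 1), and genes with a median of at least 10 were tested. Pearson correlations of all pairs were computed in Python 3.11.15 with NumPy 2.4.6, pandas 2.3.3 and SciPy 1.17.1, adjusted by Benjamini-Hochberg over all pairs and checked on simulated data. Correlations treat the libraries as independent, each taken as 1 animal from the design text's count of animals per group. The correlation test and the permutations do not take the 6 groups into account, because the columns carry no group name. Named pairs were a written list, the 5 highest, the 5 lowest and, for each role, the 3 closest genes outside the members, with 2-sided permutation p-values of 100000 resamples. Members by spread were the 5 widest and 5 narrowest. The members and lists were chosen with earlier results of these data known. Alternatives were pseudocounts of 0.1 and 10, rescaled totals, no filter on low values, Spearman's rho, leaving out libraries and leaving out rows without a symbol. Figures were drawn with Matplotlib 3.10.9.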

Additional observations from a re-analysis of the deposited data

How the results depend on the processing

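Under pseudocounts of 0.1 and 10, rescaled totals, no filter, Spearman's rho and, both added after seeing the data, without library 30 and without rows lacking a gene symbol, all 32 named pairs of members kept their direction and their side of the threshold. The positive pairs among autophagy genes numbered 3 instead of 5 with columns rescaled to 1 total, and 3 without the 2 libraries of farthest total (15 and 10). The negative pairs of lysosomal with autophagy genes numbered 4 without library 16, 5 without library 17 and 4 without both, instead of 8. Leaving out each library in turn, chosen after seeing the data like leaving out 16 or 17, gave 22 to 29 positive and 0 to 1 negative pairs within the lysosomal genes (median r 0.16 to 0.19). It gave 3 to 5 positive and 0 to 0 negative within the autophagy genes (0.21 to 0.28), with 3 without library 4, 10, 12 or 35 alone. Between them it gave 13 to 17 positive and 4 to 8 negative (0.09 to 0.14). The 1 negative lysosomal pair appeared without library 33 or 35. Pairs that changed sign were all below the threshold. Ctsa with Glb1 was -0.0369 without the farthest totals. Hexa with Glb1, -0.03 in all libraries, was 0.0170 without library 17, 0.0202 without both and 0.0546 without the 2 libraries farthest for Hexa. Mcoln1 with Tfeb was -0.0640 without library 16 and -0.0408 without the 2 farthest for Mcoln1, and without library 16 Tfeb was -0.128 with Ctsd and -0.154 with Sqstm1. Ctss with Laptm5, 0.38 in all libraries, was 0.57 and passed without the 2 farthest for Ctss. The cause of these changes was not tested. The order of members by level per kilobase was not run, since the transcript lengths were not used here. No paired analysis was possible because the columns carry no replicate number of a status group. Read depth is unknown, so the counting error of low genes such as Gusb and Tfeb could not be given.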
